A study of Canis lupus familiaris with 15 samples.

Results

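The exocyst is a protein complex that holds secretory vesicles at the plasma membrane before they fuse, and the transcripts of its subunits were measured in MDCK, a dog kidney epithelial cell line. The members were the 8 genes EXOC1 to EXOC8, taken by their symbols in the platform annotation. Of these, 7 had at least 1 probe set, with 16 probe sets among the 43035 on the array. EXOC7 had no probe set listed under its symbol and was not analysed here. A probe set was tested where its log2 intensity reached 4 on at least 3 arrays, which 12 of the 16 did. The other 4 (1 each of EXOC3 and EXOC4, and 2 of EXOC6) lay between 2.00 and 3.62 on every array. All 7 genes therefore kept at least 1 probe set, among 10287 genes tested.

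RNA was hybridised to 15 Affymetrix canine arrays, 1 per sample, from cells kept on Transwell filters for 7 days. The HGF + PD group (n = 4) received hepatocyte growth factor (HGF) at 100 ng/ml for 24 h with a compound spelled PD09859 in the labels at 50 uM, and the HGF + UO group (n = 3) received the same HGF with UO126 at 10 uM. The HGF group (n = 4) received HGF alone, and the Control group (n = 4) medium alone. The title of the study calls both compounds MAPK inhibitors, and the spellings resemble those of the MEK inhibitors PD98059 and U0126. All groups were 1 cell line in medium with 5% serum, no array of cells given a compound without HGF was analysed, and no vehicle for the compounds is named in the sources used here. The compounds were used at different doses and were not compared with each other.

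HGF acts through its receptor MET and makes MDCK cells scatter and, in a collagen gel, form tubules. In polarised MDCK cells the exocyst sits near the junctions at the top of the lateral membrane and serves delivery to the basolateral membrane and growth of the primary cilium. EXOC1 to EXOC4 (SEC3, SEC5, SEC6 and SEC8) form 1 subcomplex and EXOC5 to EXOC8 (SEC10, SEC15, EXO70 and EXO84) the other. EXOC6 binds vesicle-bound RAB11, EXOC5 links it to the rest of the complex in yeast, and EXOC2 and EXOC8 are targets of the GTPase RALA. In MDCK cells, overexpressed human SEC10 is known to favour formation of cysts and of tubules under HGF.

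After GCRMA the arrays were alike in overall signal, with a median intensity between 40.4 and 42.6 and 56.9 to 57.8% of probe sets at the filter level. GCRMA makes arrays comparable, so this likeness follows at least in part from the processing and is no check of the RNA. All 7 epithelial markers were measured, and their summed intensity was 79768 to 96343 on HGF arrays, against 110517 to 119660 on Control arrays. It was 78893 to 99147 on HGF + PD arrays and 84944 to 93248 on HGF + UO arrays. The markers went both ways in HGF against Control, with 1 called higher (CDH1, 0.60) and 4 lower (PAX8 at -1.57, EPCAM at -0.73, KRT18 at -0.48 and CDH16), while KRT8 and TJP1 were not called. CDH16, with the largest of these differences, averaged a log2 intensity of 7.77 on HGF arrays, against 10.8 on Control arrays. Of the markers of other cells, 2 of 6 for fibroblasts, 3 of 5 for endothelium and 2 of 5 for leukocytes passed the filter, with summed intensities over all groups of at most 206, 518 and 117. The 3′ minus 5′ difference of the actin control probe sets, a sign of RNA integrity and labelling, was lower with HGF, at a log2 value of 2.71 ± 0.06 on HGF arrays, against 3.33 ± 0.06 on Control arrays (SD, n = 4 each). With the compounds it was 3.32 ± 0.04 on HGF + PD arrays (n = 4) and 3.40 ± 0.01 on HGF + UO arrays (n = 3). The part of these shifts in the changes given below was not tested.

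HGF moved the subunits in different directions. EXOC5 transcript was higher on HGF arrays by more than 2-fold, EXOC6 was lower by a similar or larger factor, and EXOC8 was slightly lower. EXOC1, EXOC2, EXOC3 and EXOC4 did not pass the test. In all, 1 of the 7 measured genes rose with HGF and 2 fell, against 28.0% and 27.7% of all genes tested, so the share of subunits called (42.9%) was no higher than among all genes. The median log2 difference was -0.06 over the 7 genes and -0.01 over all genes. By subcomplex, 3 of 3 measured genes among EXOC5 to EXOC8 were called and 0 of 4 among EXOC1 to EXOC4. At the brightest probe sets of EXOC1 to EXOC4, limma also gave 0 of 4 at an unadjusted p under 0.05. The other EXOC2 probe set had an unadjusted limma p of 0.0403. EXOC4 was read at 1 dim probe set, and the EXOC8 call did not hold in every alternative. With so few genes, and 55.7% of all genes called, these counts do not set the subcomplexes apart. In bulk samples, fewer cells of a type and less RNA per cell cannot be told apart.

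EXOC5 encodes SEC10. Its brighter probe set, CfaAffx.23428.1.S1_s_at, read log2 intensities of 8.14, 8.38, 8.17 and 8.48 on HGF arrays, against 7.29, 6.81, 7.05 and 7.20 on Control arrays. All HGF arrays lay above all Control arrays. The difference was 1.20 ± 0.11 (SE; limma, adjusted p = 2.26e-07), or 2.30-fold. The second probe set, Cfa.18664.1.S1_s_at, read 8.07, 7.97, 7.77 and 7.82 on HGF arrays, against 6.92, 6.59, 6.50 and 6.52 on Control arrays. These groups were also apart, by 1.28 ± 0.09 (adjusted p = 2.12e-08) or 2.42-fold. Both probe sets thus gave the same direction and nearly the same size. Among all genes, 10.5% differed by as much as EXOC5 or more.

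With either compound, EXOC5 was lower than with HGF alone and its arrays overlapped the Control arrays. On HGF + PD arrays its brighter probe set read 6.84, 7.06, 7.05 and 7.18, which is -1.26 from the HGF arrays (adjusted p = 1.40e-07). On HGF + UO arrays it read 7.21, 7.17 and 7.20, a difference of -1.10 ± 0.12 from the HGF arrays (adjusted p = 1.56e-06). All arrays of both groups lay below all HGF arrays. The second probe set was lower as well, by -1.46 in HGF + PD (adjusted p = 5.20e-09) and by -1.09 in HGF + UO (adjusted p = 3.14e-07). Against Control, EXOC5 differed by -0.06 in HGF + PD (95% interval -0.29 to 0.17, adjusted p = 0.718) and by 0.10 in HGF + UO (95% interval -0.15 to 0.35, adjusted p = 0.612). The second probe set differed from Control by -0.18 (adjusted p = 0.145) in HGF + PD and by 0.19 (adjusted p = 0.212) in HGF + UO, and the last of these was called without Control replicate 1 (0.28, adjusted p = 0.0192).

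**Figure D1:**
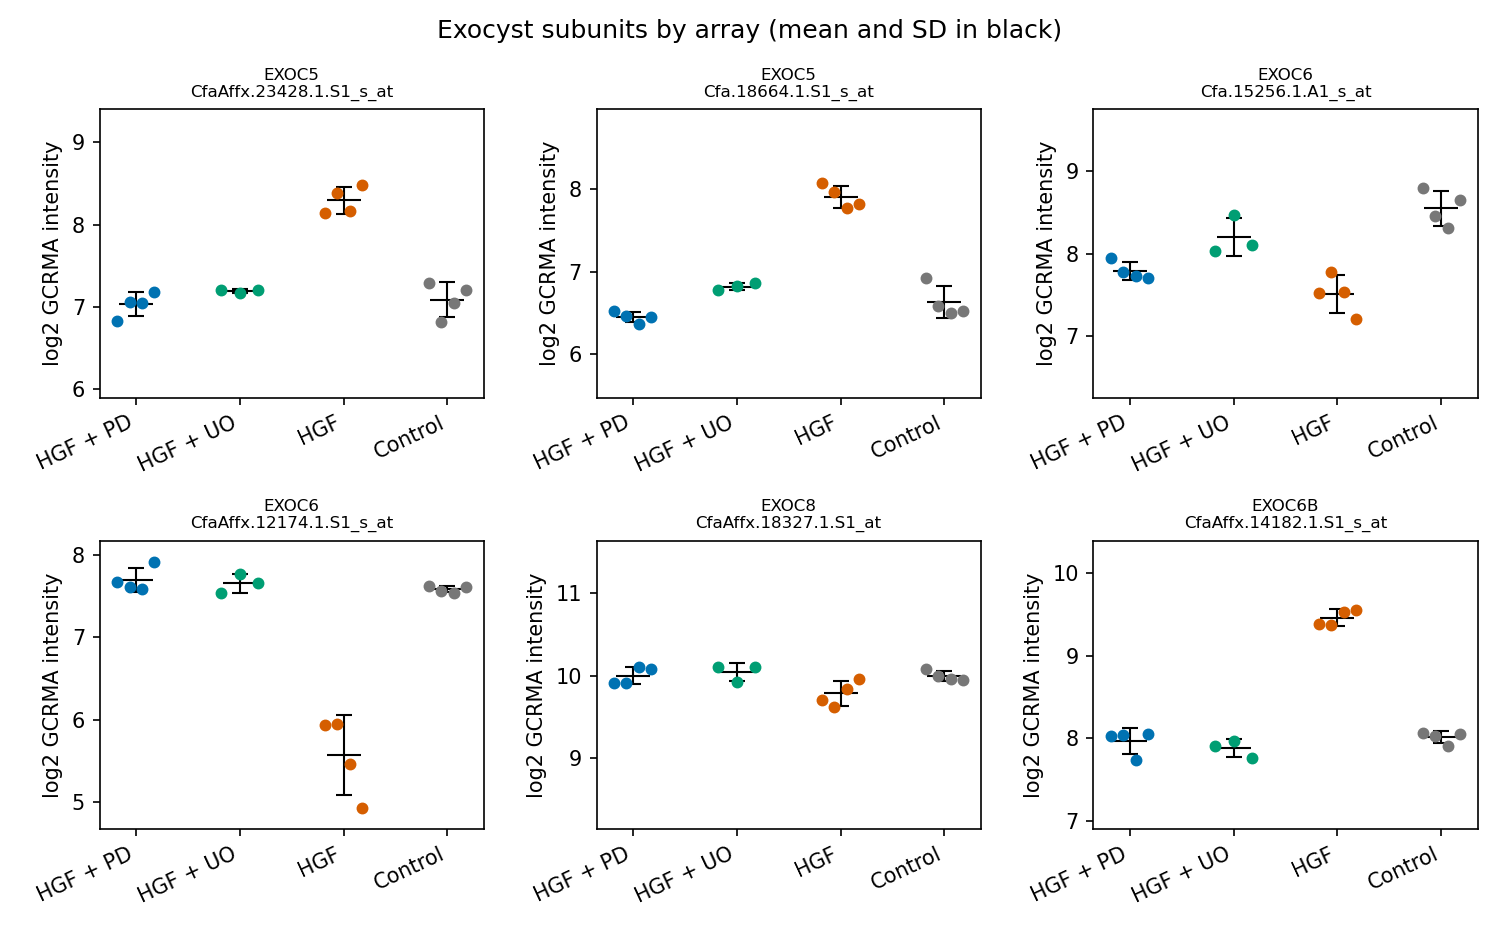
Log2 intensity of EXOC5 and EXOC6 (2 probe sets each), EXOC8 and the paralog EXOC6B on each of the 15 arrays, with a point per array, and the mean and SD of each group in black; the panels' axes have equal spans but different ranges. EXOC5 and EXOC6B are high on the 4 HGF arrays, while the EXOC8 arrays of HGF and Control overlap. Both EXOC6 probe sets are low on the HGF arrays, and the brighter one is below Control on the HGF + PD arrays too.

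EXOC6 encodes SEC15, the subunit that meets the vesicle's RAB GTPases. Its brighter probe set, Cfa.15256.1.A1_s_at, read 7.52, 7.78, 7.54 and 7.21 on HGF arrays, against 8.79, 8.46, 8.31 and 8.65 on Control arrays. All HGF arrays lay below all Control arrays. The difference was -1.04 ± 0.13 (adjusted p = 8.97e-06), a ratio of 0.486. The second probe set, CfaAffx.12174.1.S1_s_at, read 5.94, 5.94, 5.47 and 4.93 on HGF arrays, against 7.62, 7.56, 7.54 and 7.61 on Control arrays. The groups were again apart, with the HGF arrays spread over a wider range than the Control arrays. This probe set differed by -2.01 ± 0.17 (adjusted p = 1.65e-07), a ratio of 0.248. That SE rests on 1 spread shared by all groups, not on the wider spread of the HGF arrays. The lowest HGF value, 4.93, came close to the filter level, where GCRMA compresses differences.

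The 2 EXOC6 probe sets parted under the compounds. The second one was higher than with HGF alone and overlapped the Control arrays, reading 7.67, 7.61, 7.59 and 7.92 on HGF + PD arrays and 7.54, 7.77 and 7.66 on HGF + UO arrays. It was 4.36-fold higher in HGF + PD than in HGF (adjusted p = 9.39e-08) and 4.24-fold higher in HGF + UO than in HGF (adjusted p = 3.10e-07). Against Control it differed by 0.11 in HGF + PD (adjusted p = 0.657) and by 0.07 in HGF + UO (adjusted p = 0.857). The brighter one read 7.94, 7.78, 7.73 and 7.71 on HGF + PD arrays and 8.03, 8.47 and 8.10 on HGF + UO arrays. It was higher in HGF + UO than in HGF by 0.69 ± 0.14 (adjusted p = 0.000862). In HGF + PD it differed from HGF by 0.28, with a 95% interval of -0.00 to 0.56 (adjusted p = 0.0894), and it stayed below Control on every array, by -0.76 ± 0.13 (adjusted p = 0.000468). In HGF + UO it differed from Control by -0.35 (adjusted p = 0.101). That last difference was called without HGF + UO replicate 2 (-0.48, adjusted p = 0.0392), and the one between HGF + PD and HGF without HGF replicate 2 (0.37, adjusted p = 0.0319).

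The gap between the EXOC6 probe sets was read within each array, which cancels any shift of the array as a whole. A 3′ to 5′ shift like that of the actin control probe sets need not cancel, and its part was not tested. The size of the gap depends on the probes and only its change between groups is read here. On HGF arrays the second probe set came nearer the filter level, where GCRMA compresses differences. The brighter minus the second probe set was 1.94 ± 0.30 on HGF arrays, against 0.97 ± 0.17 on Control arrays (SD, n = 4 each). It was 0.09 ± 0.21 on HGF + PD arrays (n = 4) and 0.54 ± 0.14 on HGF + UO arrays (n = 3). The gap was wider in HGF than in Control by 0.97, and the difference from HGF was -1.84 in HGF + PD and -1.39 in HGF + UO, each with a two-sided exact permutation p of 0.0286, the smallest these array numbers can give, and an adjusted p of 0.0390 over 15 such comparisons. The probe sets thus reported unequal changes of transcripts annotated to 1 gene. A mean over both gave EXOC6 as higher in HGF + PD than in HGF by 1.20 (adjusted p = 2.63e-06) and its difference between HGF + PD and Control as -0.32 (adjusted p = 0.0773).

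EXOC8 encodes EXO84, one of the RALA targets. It read 9.71, 9.62, 9.84 and 9.96 on HGF arrays, against 10.08, 9.99, 9.96 and 9.94 on Control arrays. HGF replicate 4 lay within the Control range. The difference of -0.21 ± 0.08 passed the test across all genes (adjusted p = 0.0281, ratio 0.862), but the exact permutation test of these 8 arrays did not (two-sided p = 0.0571). It read 9.90, 9.91, 10.11 and 10.08 on HGF + PD arrays and 10.11, 9.92 and 10.10 on HGF + UO arrays, and both groups overlapped the HGF arrays. EXOC8 was called higher by 0.22 in HGF + PD than in HGF (adjusted p = 0.0257) and by 0.26 ± 0.08 in HGF + UO than in HGF (adjusted p = 0.0156), with exact permutation p = 0.0857 for each. Differences of this size or larger were found for 55.3% of all genes between HGF and Control. The calls of EXOC8 were lost when single arrays were left out: without Control replicate 1 or 2 or HGF replicate 1 or 2 between HGF and Control (adjusted p = 0.0527 to 0.0938), without HGF replicate 1 or 2 or HGF + PD replicate 3 or 4 between HGF + PD and HGF (0.0688 to 0.0868), and without HGF + UO replicate 1 or 3 between HGF + UO and HGF (0.0628 to 0.0646).

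EXOC1, EXOC2 and EXOC3, of the other subcomplex, had 6 probe sets in the test. Between HGF and Control their differences ran from -0.11 to 0.18, and limma called 0 of 6, with 1 of 6 at an unadjusted p under 0.05. The widest limits of their 95% intervals were ratios of 0.837 and 1.43, so changes of the size seen for EXOC5 or EXOC6 lay outside every interval. EXOC2 (SEC5, a RALA target) had the smallest adjusted p of these, 0.0697, for CfaAffx.14491.1.S1_at. This probe set read 9.96, 9.82, 9.79 and 9.67 on HGF arrays, against 9.68, 9.64, 9.68 and 9.73 on Control arrays, a difference of 0.13 with overlapping groups. The brighter EXOC2 probe set differed by 0.08 (adjusted p = 0.393), and the mean of both was called higher by 0.10 (adjusted p = 0.0107). EXOC3 (SEC6) differed by -0.07 (adjusted p = 0.390) and -0.11 (adjusted p = 0.170) at its 2 probe sets.

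EXOC1 (SEC3, a subunit that touches the plasma membrane in yeast) differed between HGF and Control by 0.02 at its brighter probe set, CfaAffx.4161.1.S1_s_at (adjusted p = 0.900). Its second probe set, Cfa.18432.1.S1_s_at, read 8.81, 8.52, 8.39 and 8.75 on HGF + PD arrays, against 9.35, 9.19, 8.85 and 8.85 on HGF arrays. All HGF + PD arrays lay below the HGF arrays, by -0.44 ± 0.16 (adjusted p = 0.0277). This call was lost without HGF replicate 1, HGF replicate 2, HGF + PD replicate 2 or HGF + PD replicate 3 (adjusted p up to 0.0908). The brighter probe set did not show it, at -0.04 (adjusted p = 0.723). On all HGF + UO arrays the second probe set was also below the HGF arrays. That difference of -0.38 was not called (adjusted p = 0.0781). At the brighter probe set, HGF + UO differed from HGF by -0.14 (adjusted p = 0.205). EXOC4 (SEC8) was tested at 1 dim probe set that read 4.63 on each HGF array, against 4.85, 4.65, 4.62 and 4.63 on Control arrays. Its values sat near the filter level, where GCRMA compresses differences, and its difference of -0.06 (adjusted p = 0.360) limits little.

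**Figure D2:**
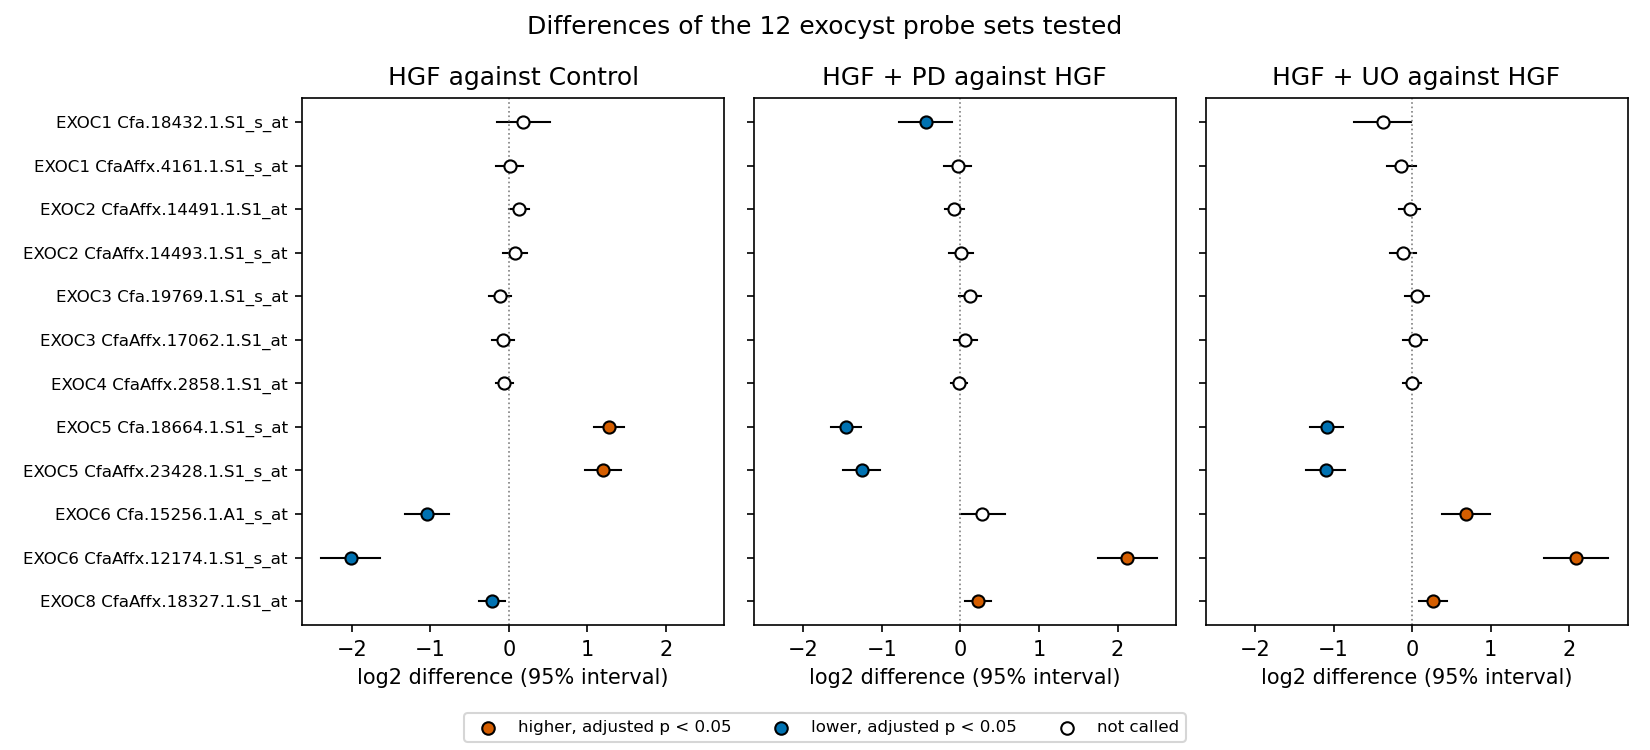
Log2 differences of the 12 tested exocyst probe sets (points) with 95% intervals of the limma fit (bars), for HGF against Control, HGF + PD against HGF and HGF + UO against HGF; filled points passed the adjusted p threshold. EXOC5 is at 1.20 and 1.28 and EXOC6 at -1.04 and -2.01 in the left panel, and each takes the opposite sign in the other panels, where the brighter EXOC6 probe set was not called for HGF + PD against HGF.

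Counted over genes, HGF + PD against HGF gave 1 of 7 subunits higher (EXOC8) and 1 lower (EXOC5), where 29.9% of all genes were higher and 25.8% lower. HGF + UO against HGF gave 2 higher (EXOC6 and EXOC8) and 1 lower (EXOC5), against 26.2% and 26.3% of all genes. Against Control, HGF + PD had 0 higher and 1 lower (EXOC6), where 21.8% of all genes were higher and 13.5% lower. HGF + UO had 0 called either way against Control by limma, with 1 of 7 at an unadjusted p under 0.05, where 13.8% of all genes were higher and 10.3% lower. With 7 genes these shares are too coarse to set the subunits apart from the rest. The comparisons share the HGF or the Control arrays and are not independent of each other.

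The opposite HGF differences of EXOC5 and EXOC6 also appear as a large distance over the same arrays, which is not a separate result. EXOC6 ranked 9689 of 10286 genes by closeness to EXOC5, with a mean absolute difference of 0.906 on the log2 scale over the 15 arrays, after each gene was set to its own Control mean. For the other measured subunits this distance was 0.410 to 0.452, and its median over all genes was 0.464. EXOC6 was the member with the larger difference at its second probe set, but at the probe sets that represent the genes the largest was that of EXOC5. The 5 genes nearest to EXOC5 were SH3BGRL3 (0.0978), EHD2 (0.107), GSDMD (0.118), COTL1 (0.120) and TMEM87B (0.125). They differed between HGF and Control by 1.31, 1.14, 1.27, 1.35 and 1.31 in that order. Values near that of EXOC5 follow from this choice, which used the same arrays.

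Some paralogs of the subunits moved with HGF too. Of 5 listed, 4 passed the filter, EXOC3L1 only through 3 HGF arrays. Of the other 3, EXOC6B and TNFAIP2 rose in HGF against Control and were lower with each compound than in HGF. Among all genes, 28.0% rose with HGF, and 25.8% and 26.3% were lower in HGF + PD and HGF + UO than in HGF. With 3 genes the count does not set the paralogs apart. EXOC6B, a second SEC15 gene, read 9.38, 9.37, 9.54 and 9.56 on HGF arrays, against 8.06, 8.03, 7.90 and 8.05 on Control arrays. All HGF arrays lay above, by 1.45 ± 0.08 (adjusted p = 1.50e-09) or 2.73-fold, in the direction opposite to EXOC6. It was -1.50 from HGF in HGF + PD (adjusted p = 1.08e-09) and -1.58 from HGF in HGF + UO (adjusted p = 1.64e-09), and did not pass the test against Control with either compound.

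The values of the SEC15 genes were also set against each other within arrays. EXOC6B minus the second EXOC6 probe set was larger on HGF than on Control arrays by 3.46. For the brighter EXOC6 probe set this difference was larger by 2.49. All HGF arrays lay above the Control arrays for EXOC6B and below them for both EXOC6 probe sets. These differences therefore had to separate, and their two-sided exact permutation p of 0.0286 is no further support. Both differences were smaller with the compounds than in HGF, by -3.62 and -1.78 in HGF + PD and by -3.67 and -2.27 in HGF + UO. Probes for these related genes could in principle share signal, and that was not tested.

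**Figure D3:**
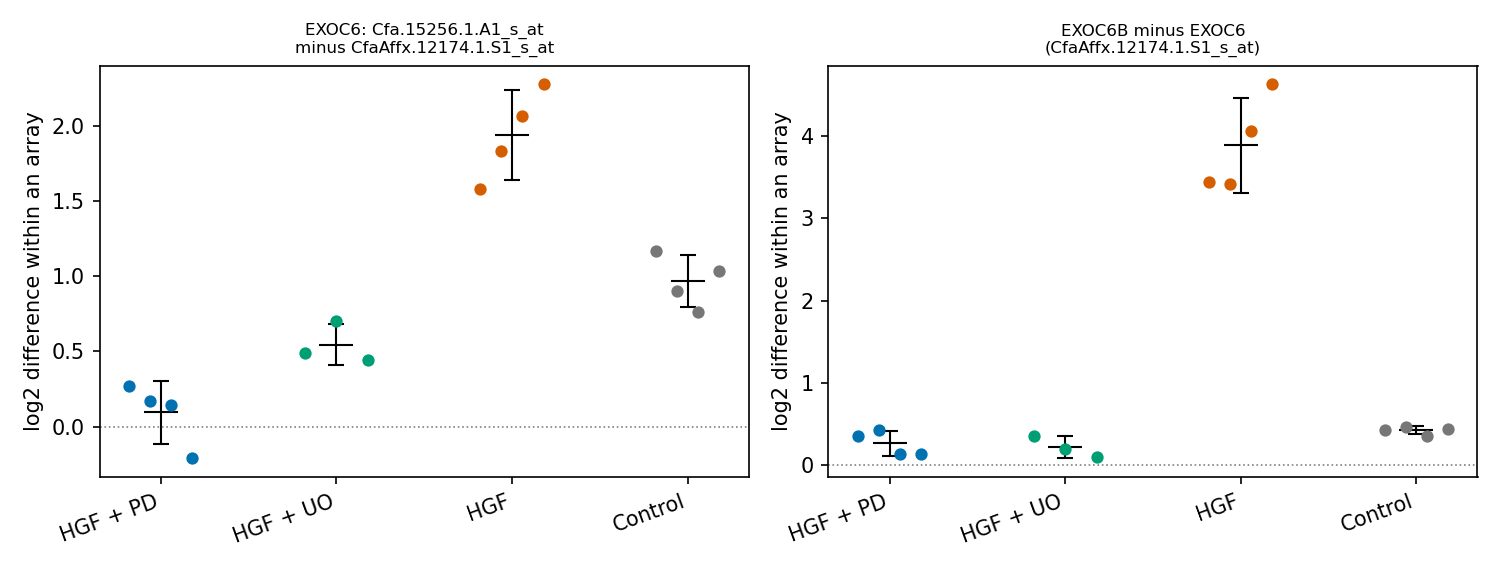
Within-array log2 differences by group, with a point per array and the mean and SD in black: the 2 EXOC6 probe sets (left) and EXOC6B minus EXOC6 at its second probe set (right). The left gap averages 1.94 on HGF arrays and 0.97 on Control arrays, and the right difference averages 3.89 on HGF arrays and 0.43 on Control arrays, while the arrays with a compound lie at 0.54 or lower on average in both panels.

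TNFAIP2 (M-SEC), a relative of SEC6 known for the growth of membrane nanotubes, read 8.71, 9.00, 9.48 and 9.36 on HGF arrays, against 6.62, 6.17, 7.20 and 5.95 on Control arrays. The groups were apart, by 2.65 ± 0.30 (adjusted p = 2.98e-06), and a second probe set gave 1.99. It was -2.13 from HGF in HGF + PD and -3.25 from HGF in HGF + UO. EXOC3L1 averaged 4.06 on HGF arrays, against 3.79 on Control arrays. As it reached the filter level on HGF arrays alone, its direction was fixed by the filter and no test is given. EXOC3L2 differed by 0.03 (adjusted p = 0.634).

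Among GTPases that bind the exocyst and their activators, 14 of 17 listed genes were measured, of which 5 rose and 3 fell in HGF against Control. That is 57.1% called, against 55.7% of all genes. RALA, whose active form binds EXOC2 and EXOC8, read 10.54, 10.75, 10.52 and 10.65 on HGF arrays, against 8.93, 8.78, 9.02 and 8.88 on Control arrays. It was higher on all HGF arrays, by 1.71 ± 0.07 (adjusted p = 5.91e-11) or 3.28-fold, and by 3.00 at its other probe set. With the compounds RALA was lower than in HGF, by -1.57 in HGF + PD and -1.60 in HGF + UO. RGL1, an exchange factor that activates RAL proteins, went the other way at -2.43 ± 0.14 in HGF against Control (adjusted p = 2.24e-09), with 2.41 in HGF + PD and 2.25 in HGF + UO, both against HGF. RGL1 read 4.38 to 4.87 on HGF arrays, near the filter level, where GCRMA compresses differences.

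RAB3IP (RABIN8), the exchange factor for RAB8 that binds SEC15, read 11.64, 11.47, 11.70 and 11.63 on HGF arrays, against 12.62, 12.74, 12.66 and 12.82 on Control arrays. It was lower on all HGF arrays, by -1.10 ± 0.06 (adjusted p = 9.40e-10), and by -1.59 and -1.53 at 2 other probe sets. It was higher in HGF + PD than in HGF by 0.94 and in HGF + UO than in HGF by 1.00. Over the whole list, 2 genes were higher and 8 lower in HGF + PD than in HGF, and 3 higher and 5 lower in HGF + UO than in HGF. The shares called were 71.4% and 57.1% of the list, against 55.7% and 52.5% of all genes.

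Of the SNAREs and their SM partners, which carry out the fusion that follows tethering, 11 of 15 were measured, of which 3 rose and 4 fell in HGF against Control. That is 63.6% called, near the 55.7% of all genes for a list of this size. STX4, the basolateral target SNARE of MDCK cells, read 11.64, 11.74, 11.80 and 11.65 on HGF arrays, against 10.71, 10.61, 10.61 and 10.60 on Control arrays. It was higher on all HGF arrays, by 1.08 ± 0.06 (adjusted p = 7.13e-10) or 2.11-fold. It was lower with the compounds than in HGF, by -0.86 in HGF + PD and -0.91 in HGF + UO, and still above Control by 0.21 in HGF + PD (adjusted p = 0.00889). STXBP3, the SM protein that binds STX4, was lower in HGF than in Control by -0.51 ± 0.09 (adjusted p = 0.000308). VAMP8, an endosomal SNARE, was lower by -0.80 ± 0.12 (adjusted p = 5.10e-05), with -0.46 and -0.20 at its other probe sets, the last of which was not called. With the compounds, 4 genes of the list were higher and 1 lower in HGF + PD than in HGF, and 3 higher and 3 lower in HGF + UO than in HGF, which are 45.5% and 54.5% of the list, against 55.7% and 52.5% of all genes.

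The other tethering complexes, which serve the Golgi, endosomes and the endoplasmic reticulum, had 25 of 26 listed genes measured. Of these, 5 rose and 13 fell in HGF against Control, with a median difference of -0.22, against 28.0% of all genes higher, 27.7% lower and a median of -0.01. The list was written with earlier results of these data known, and its counts were not tested against those of all genes. VPS41, of the HOPS complex at late endosomes and lysosomes, was -0.76 ± 0.07 from Control (adjusted p = 2.44e-07). COG7 and COG6, subunits of 1 Golgi complex, moved in opposite directions, at -0.76 ± 0.07 (adjusted p = 3.45e-07) and 0.58 ± 0.06 (adjusted p = 7.79e-07). With the compounds, 13 genes were higher and 3 lower in HGF + PD than in HGF (median 0.24), and 11 higher and 3 lower in HGF + UO than in HGF (median 0.22). The shares called were 64.0% and 56.0% of the list, against 55.7% and 52.5% of all genes.

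Partners of the exocyst at junctions, the cilium and the filaments were all measured (14 of 14), and 7 rose and 4 fell in HGF against Control, which is 78.6% called, against 55.7% of all genes. With 14 genes, listed with earlier results of these data known, this share does not set the partners apart. PARD3, a polarity scaffold at tight junctions, was higher by 1.04 ± 0.09 (adjusted p = 1.51e-07), and was lower than in HGF by -1.12 in HGF + PD and -1.45 in HGF + UO. NECTIN2, an adhesion molecule of adherens junctions, was lower by -0.86 ± 0.11 (adjusted p = 1.14e-05), and remained below Control in HGF + PD by -0.49 (adjusted p = 0.00379) and in HGF + UO by -0.46 (adjusted p = 0.0143). CEP55, a midbody protein of cell division, averaged 8.68 on HGF arrays, against 4.26 on Control arrays, a difference of 4.43 ± 0.22 (adjusted p = 4.50e-10) whose Control level lay near the filter level. CEP55 stayed above Control with each compound, by 3.35 in HGF + PD and by 2.85 in HGF + UO. Over the list, 3 were higher and 8 lower in HGF + PD than in HGF, and 2 higher and 8 lower in HGF + UO than in HGF, which are 78.6% and 71.4% of the list, against 55.7% and 52.5% of all genes.

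**Figure D4:**
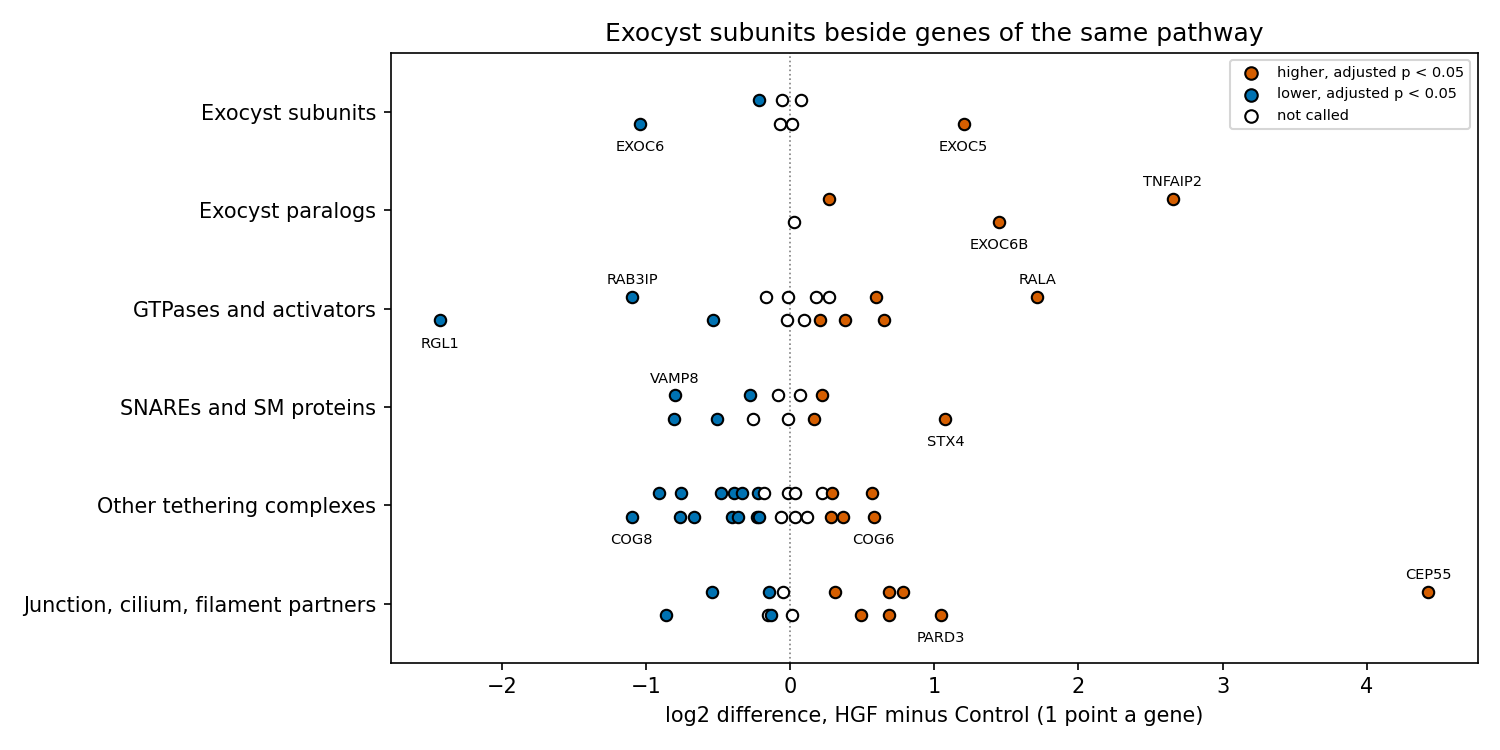
Log2 difference between HGF and Control (horizontal axis) for the 7 measured exocyst subunits and the genes of 5 related lists, with a point per gene and the colour giving the call (the paralog at 0.27 is EXOC3L1, whose direction the filter fixed). EXOC5 at 1.20 and EXOC6 at -1.04 lie at the ends of the subunits' range, RALA (1.71) and STX4 (1.08) at the upper ends of theirs, and RAB3IP (-1.10) is above RGL1 (-2.43) in its list.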

How the data were processed

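The deposited values are linear probe set intensities, summarised by the authors with GCRMA per the submitters' processing notes, in a table from 1.97 to 104385. GCRMA models background from probe sequence, makes arrays comparable and reduces the probes of a set to 1 value, and it compresses dim probe sets. The GCRMA version was not given in the sources used. From these intensities log2 was taken without scaling the arrays again. The 111 control probe sets were left out, and 24904 probe sets with a log2 of at least 4 on at least 3 arrays were kept. Names came from the platform annotation, for probe sets with 1 symbol (18490 of those kept), and 0 symbols changed through the gene ID. Some probe sets (439) had several symbols and 13231 were unlisted. The gene ID given for EXOC3L1 was not in the RefSeq table used to update symbols. The brightest kept probe set represents a gene.

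A model with 1 mean per group was fitted to all 15 arrays (limma 3.58.1, R 4.3.3, lmFit and eBayes with a variance trend), with Benjamini-Hochberg adjustment over the 24904 probe sets and a threshold of 0.05. Genes were called through their brightest probe set, and the other probe sets of a gene are given beside it. The fit was run on simulated data with independent normal values and changes in few probe sets. In the data many genes were called, so that run says little about the calls given here. The labels call the samples of a group biological replicates, without saying how cultures were separated in time, and the p-values rest on the spread between these arrays. The number of arrays limits the precision. Within-array differences were tested with two-sided exact permutation tests. The 8 members and 5 lists (77 genes, of which 69 had a probe set and 68 were measured) were chosen with earlier results of these data known. The text names all members, the 3 genes per list with the lowest adjusted p for HGF against Control, and the 5 genes nearest to the member with the largest difference. EXOC3L2 was named after its value was seen. Alternatives were other filters, centring, quantile normalization, log2(value + 16), no variance trend, a replicate block, only the arrays compared, the mean over probe sets, and each array left out.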

Additional observations from a re-analysis of the deposited data

Results flagged for a closer look

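In groups of 4 arrays, 1 array that stood far from the others was marked by Dixon's criterion, which by chance marks about 1 in 20 groups. Of 36 groups of exocyst probe sets tested, 2 were marked. HGF replicate 1 read 8.67 at the EXOC3 probe set Cfa.19769.1.S1_s_at, where the other HGF arrays read 8.89 to 8.92. Control replicate 1 read 4.85 at the EXOC4 probe set CfaAffx.2858.1.S1_at, where the other Control arrays read 4.62 to 4.65, next to the filter level. Neither probe set was called in any comparison.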

How the results depend on the processing

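Over the members' log2 differences and their alternatives, 1156 of 1180 values kept their side of the threshold, 18 lost a call and 6 gained one. The sign changed in 32, each at a value of at most 0.0627 in size, and in 0 of the 377 alternatives of called differences. EXOC5 and both EXOC6 probe sets kept their calls for HGF against Control throughout, with log2 differences from 1.11 to 1.27 for EXOC5. For HGF against Control, centring each array on its median left 1 subunit lower in place of 2 (EXOC8 at -0.19, adjusted p = 0.0682). Fits to only the arrays compared gave 0 higher in place of 1 for HGF + PD against HGF and 1 in place of 2 for HGF + UO against HGF, through EXOC8. The mean over probe sets gave 2 higher for HGF against Control (EXOC2 added), 2 higher for HGF + PD against HGF (EXOC6 added) and 0 lower for HGF + PD against Control. With 1 array left out, the lower count for HGF against Control was 1 to 2, the higher count for HGF + PD against HGF 0 to 1, the higher and the lower count for HGF + UO against HGF 1 to 2 each, and the lower count for HGF + UO against Control 0 to 1. The lower count for HGF + UO against HGF reached 2 without HGF replicate 1 (EXOC2 at -0.19, adjusted p = 0.0367). The causes were not tested.

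Same-numbered arrays deviated together in some pairs only. Their correlations were above 0.1 in 1 of 4 pairs for HGF against Control (-0.25 to 0.21), 3 of 4 for HGF + PD against HGF (-0.06 to 0.41) and 2 of 3 for HGF + UO against HGF (-0.16 to 0.17). No comparison had every pair above 0.1, and the numbers were not taken to pair the samples. With the replicate number as a block, 1 subunit was higher and 2 lower for HGF against Control, and the replicate block changed no other count. The dim signals of EXOC4 and the missing EXOC7 limit what is said of them.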
